A study of Mus musculus with 6 samples.

Results

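Cd55, the RNA Cd55os transcribed from the opposite strand beside it, and the complement regulators Cd46, Cr1l and Cd59a were followed in mouse auditory cortex with and without overexpression of WNT3. These 5 genes of the 50559 in the deposited tables were matched by symbol. They were selected on the measured difference between overexpression and control, since Cd55os had no count in any control, and on the annotated role of the other regulators. Their differences between the groups are therefore given as a description, with no test. All 5 were among the 22360 genes with enough counts to be tested.

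Gene expression was measured by RNA sequencing in 6 libraries from C57 mice, 3 labelled control and 3 labelled WNT3 overexpression. The labels give neither the age of the mice, nor how the gene was overexpressed or in which cells, nor what the controls received. They do not say whether libraries of a group came from separate animals, so p-values measure the spread between these libraries, which may be technical. The tissue is labelled auditory cortex, whereas the extraction protocol names striatum. The 8 markers of cortical excitatory neurons summed to 1121 to 1252 CPM (counts scaled to library size, with TMM factors) in the 6 libraries, and the 8 markers of striatal projection neurons to 177 to 356 CPM.

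Complement is a cascade of plasma proteins in which C3 and C5 are cut by enzyme complexes called convertases and the last components assemble into a pore, the membrane attack complex. Host cells carry regulators that stop the cascade on their own surface. CD55, also called decay-accelerating factor, is held in the membrane by a glycosylphosphatidylinositol (GPI) anchor and takes convertases apart. CD46 and Crry, the product of Cr1l in rodents, act as cofactors for the cleavage of deposited C3b and C4b, and Crry also speeds the decay of convertases. CD59, encoded in mice by Cd59a and the related gene Cd59b, blocks assembly of the membrane attack complex. In the brain, complement components and receptors are best known from microglia and astrocytes and from the removal of synapses.

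Cd55os and Cd55 lie next to each other on chromosome 1 of mm10. Cd55os is a non-coding gene on the plus strand, from 130422824 to 130437914, and GENCODE M21 lists it as antisense under the name Gm15674. Cd55 is on the minus strand, from 130439027 to 130462744 in GENCODE M21, so that the 2 spans share no base there and are 1112 bases apart. In RefSeq (GRCm38.p6) the Cd55 span reaches from 130429798 to 130465009 and overlaps Cd55os by 8117 bases. The start of Cd55os lies within the start of Cd55b, the second mouse Cd55 gene, with 145 bases of shared exon on opposite strands. Cd46 (195036826 to 195092249) and Cr1l (195097382 to 195131586) are neighbours on the minus strand of the same chromosome in GENCODE M21, and their RefSeq spans overlap by 74 bases. Cd59a is on the plus strand of chromosome 2, from 104095801 to 104115354.

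**Figure D1:**
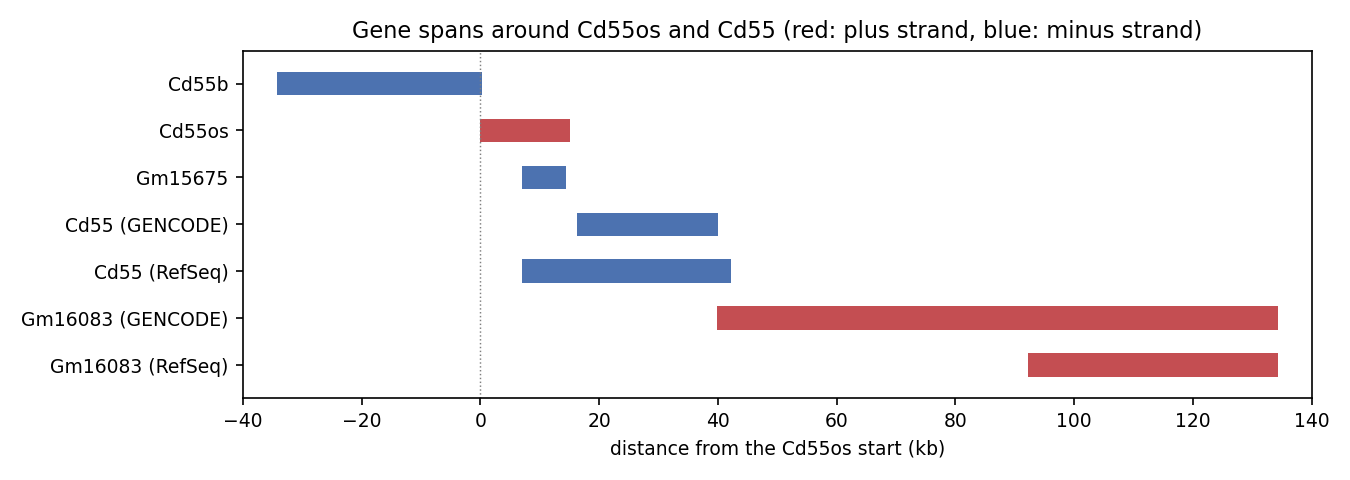
Spans of the genes around Cd55os and Cd55, as distance in kb from the Cd55os start, with plus-strand genes in red and minus-strand genes in blue. Cd55os begins inside Cd55b and ends 1112 bases short of the GENCODE span of Cd55, whereas the RefSeq span of Cd55 overlaps it by 8117 bases.

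The 250 bases before an annotated start of Cd55os and Cd55 are shown because the 2 genes are neighbours and yet, of the pair, only Cd55os had counts in one group alone. Both come from RefSeq with the GRCm38.p6 build and are written 5′ to 3′ on the strand of the gene, chr1:130422574-130422823 (plus) for Cd55os and chr1:130462745-130462994 (minus) for Cd55. The Cd55 start in the RefSeq promoter table is the 5′ end of its GENCODE M21 span, and the window lies inside the longer RefSeq span given above. Capitals mark every motif match on either strand.
Cd55os: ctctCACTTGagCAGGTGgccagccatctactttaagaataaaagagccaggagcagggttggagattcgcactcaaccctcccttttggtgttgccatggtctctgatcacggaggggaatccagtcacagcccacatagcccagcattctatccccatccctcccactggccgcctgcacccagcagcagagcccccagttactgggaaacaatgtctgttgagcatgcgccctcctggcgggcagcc
Cd55: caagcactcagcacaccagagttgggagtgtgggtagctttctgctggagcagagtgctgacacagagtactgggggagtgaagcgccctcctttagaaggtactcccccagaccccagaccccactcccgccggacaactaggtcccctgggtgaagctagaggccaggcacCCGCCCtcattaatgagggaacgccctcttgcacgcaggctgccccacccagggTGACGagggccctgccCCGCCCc

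The motifs searched on both strands were STAT (TTCNNNGAA), AP-1 (TGANTCA), the half-site of CREB (TGACG), TCF/LEF (CTTTGAT and CTTTGTT), the E-box (CANNTG), the GC box (GGGCGG), the TATA box (TATAAA) and the CCAAT box (CCAAT). The capitals in the Cd55os window are E-boxes, a motif found in 66.04% of the 27025 windows of this length. Those in the Cd55 window are 2 GC boxes, present in 32.9% of windows, and 1 half-site of CREB, present in 17.9%. No matches overlapped in these 2 windows, and the letters of TCF/LEF, STAT and AP-1 were in neither. Bases G and C made up 64.0% of the Cd55 window and 57.6% of the Cd55os window, against a median of 52.0% over all windows.

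Total counts ranged from 42614588 to 71803617 per library. Wnt3 reached 98.8, 7.45 and 8.71 CPM in overexpression libraries 1 to 3, all above the controls, which were at 1.74 to 2.70 CPM. Control 2 stood apart from the other libraries. It held the lowest value of the 6 for 34.1% of tested genes and the highest for 35.8%, where each other library held from 9.57% to 14.97% of the lowest and from 10.1% to 15.5% of the highest. The values of the members are given with and without it, as are those of other named genes whose sign turned without it.

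Cd55os had 17, 46 and 31 counts in overexpression libraries 1 to 3 and was listed at 0 counts in all 3 controls. These counts correspond to 0.30, 0.74 and 0.43 CPM, a mean of 0.49 ± 0.22 (SD, n = 3). Every overexpression library was above every control, and the groups did not overlap on the TPM scale either, with 0.31, 0.74 and 0.42 TPM (a level per transcript length, scaled to the same total in each library) against 0. With a floor of 3 counts over the control group, or 0.0203 CPM, the mean overexpression level was 24.2-fold the floor. This bound covers counting error in the controls only, not the error or spread of the overexpression counts. Without overexpression library 2 it was 18.2-fold. With 3 counts as the floor in each control, and all libraries, it was 7.99-fold. At the mean overexpression level, the depth of controls 1 to 3 would give 21.0, 26.8 and 24.9 counts.

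The counts of Cd55 in the same libraries give a scale for those of its neighbour. Cd55os made up 5.48%, 10.5% and 5.496% of the joint counts of Cd55os and Cd55 in overexpression libraries 1 to 3, with exact 95% binomial intervals of 3.23% to 8.64%, 7.76% to 13.7% and 3.76% to 7.71%. In the controls 765 counts fell on Cd55 and 0 on Cd55os, which allows a share of up to 0.392%. The upper exact limits in single controls were 1.83%, 1.37% and 1.23%. These shares describe the counts on which Cd55os was selected and are no test. Whether counting used the strand is not given in the sources used here, so counts of the 2 genes cannot be fully told apart where their RefSeq spans overlap. The same holds for Gm15675, a minus-strand lincRNA of GENCODE M21 that shares 1087 of the 2438 exonic bases of Cd55os and was not analysed here. Cd55b, on which the Cd55os start lies, had 3 counts in overexpression library 2 and 0 in the other 5 libraries.

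**Figure D2:**
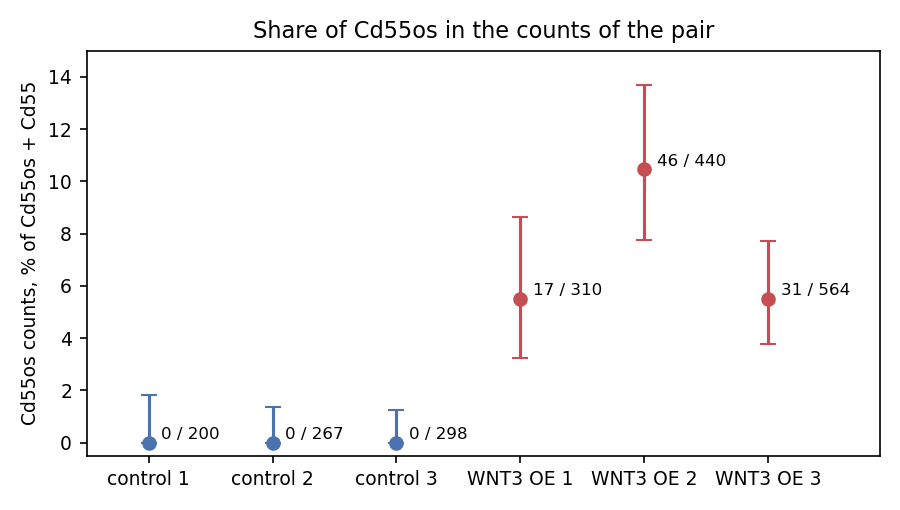
Share of Cd55os in the joint counts of Cd55os and Cd55, in percent, with exact 95% binomial intervals and the counts beside each point, for 3 control (blue) and 3 overexpression (red) libraries. The controls are at 0 and the overexpression libraries at 5.48%, 10.5% and 5.496%.

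In the whole table, 160 rows had 0 in every control and at least 1 count in every overexpression library, and 55 had the reverse. These counts are not scaled to depth. Total counts were 54642400 to 71803617 per overexpression library against 42614588 to 55859274 per control, and the part of depth in these row counts was not tested. Taking the lowest overexpression count of Cd55os, 17, as the mark, 3 rows had 0 in every control and at least 17 counts in every overexpression library, and 0 rows had the reverse. The other 2 were Mmp8, a collagenase of neutrophil granules, and Lilr4b, a leukocyte receptor gene, both named after their values were seen. Cd55os is among the 3 by its selection and by the mark, so these row counts are no test of it. The table holds 172 genes whose name is another gene symbol with the ending os, for opposite strand. They were matched by name only, and their strand, overlap and coding type were not checked. Of the 172, only Cd55os had no control count and a count in each overexpression library, which is the trait it was selected on. Among the 94 other such genes with enough counts, 43 had a fold change above 0 and 51 below, where 49.3% of all tested genes were above 0. Their median log2 fold change was -0.06 against -0.01 over all tested genes. The edgeR quasi-likelihood test called 0 of the 94 (lowest Benjamini-Hochberg adjusted p = 0.82), as did DESeq2 and limma voom. An unadjusted edgeR p under 0.05 was reached by 3 of the 94, and by 1040 of all 22360 tested genes.

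Markers were summed for 13 lists of cell types, and only the sums for neutrophils, monocytes and vessels had no overlap between the groups of libraries. Over all tested genes, 5.89% were separate and higher in CPM, and 49.3% had a fold change above 0. The 10 neutrophil markers summed to 32.7, 52.7 and 14.6 CPM in overexpression libraries 1 to 3, against 6.43 to 9.48 CPM without overexpression. Of these markers 7 of the 8 tested had a fold change above 0, and Mmp8 was at 0 in all controls. Csf3r, picked after its values were seen, made up 6.24, 5.34 and 4.92 CPM of the sums in controls 1 to 3. It was at 12.1, 5.94 and 6.62 CPM in overexpression libraries 1 to 3, with overlapping groups. The 5 monocyte markers, of which 2 were tested and both had a fold change above 0, summed to 2.30 to 9.45 CPM with overexpression and 1.31 to 2.10 CPM without. The 12 endothelial markers, 9 of them with a fold change above 0, summed to 324 to 515 CPM with and 250.2 to 280 CPM without. The 6 markers of meningeal fibroblasts all had a fold change above 0, but their sums overlapped, at 18.7 to 54.6 CPM with and 16.0 to 26.7 CPM without. Sums of the 8 markers of T and B cells overlapped too, at 1.90 to 5.49 CPM with and 1.08 to 3.16 CPM without. The 8 oligodendrocyte markers all had a fold change below 0 (median log2 fold change -0.36), as did 7 of the 8 markers of striatal projection neurons (median -0.52), with overlapping sums for both. In a bulk sample, more cells of a type and more RNA per cell cannot be told apart, and the part of these cells in the Cd55os counts was not tested.

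Cd55 itself had overlapping groups. Controls 1 to 3 had 200, 267 and 298 counts of it, and the overexpression libraries, in order, 293, 394 and 533. The control levels of 4.69, 4.90 and 5.89 CPM averaged 5.16 ± 0.64 (SD, n = 3). With overexpression the levels were 5.23, 6.33 and 7.46 CPM and averaged 6.34 ± 1.12 (SD, n = 3). Overexpression libraries 2 and 3 were above every control, while library 1 lay below control 3. The log2 fold change was 0.30 ± 0.25 (SE), a 1.23-fold difference. It was 0.26 without control 2, lowest when overexpression library 3 was left out, at 0.16, and highest when overexpression library 1 was, at 0.42. In TPM the ratio of the means was 1.42, and 1.26 without control 2. Values over all tested genes were shifted upwards on that scale, with a median difference in log2(TPM + 1) of 0.14.

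**Figure D3:**
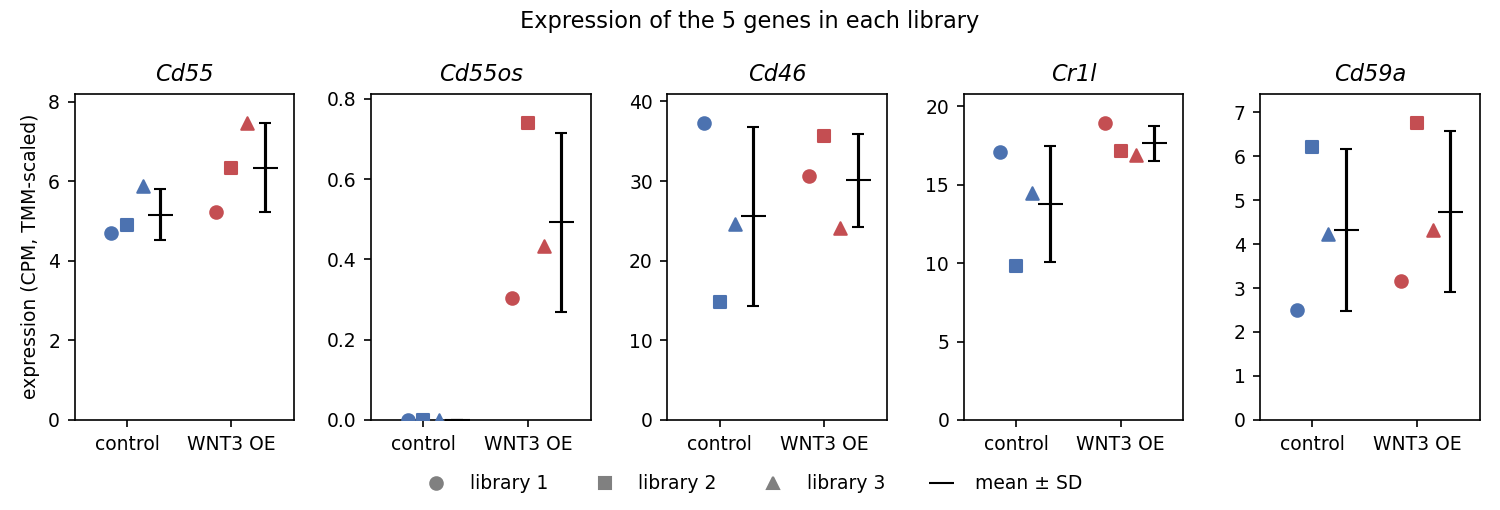
Expression of the 5 genes in CPM (y axes from 0, each gene with its own scale) in 3 control (blue) and 3 WNT3 overexpression (red) libraries, with the library number as marker shape and the mean ± SD in black. Cd55os is separate between the groups, at 0 against 0.30 to 0.74 CPM, and the groups overlap for the other 4 genes.

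Cr1l and Cd46, which encode the regulators acting as cofactors, varied more between the controls than between the overexpression libraries. Cr1l levels in controls 1 to 3 were 17.1, 9.79 and 14.5 CPM and averaged 13.8 ± 3.69 (SD, n = 3). Those with overexpression were 18.9, 17.1 and 16.9 CPM and averaged 17.6 ± 1.11 (SD, n = 3). The overexpression libraries lay close together, and only control 1 reached their range. The log2 fold change was 0.36 ± 0.24 (SE), or 0.16 ± 0.14 without control 2. In TPM, where values over all tested genes were shifted upwards, the ratio of the Cr1l means was 1.43 with all libraries and 1.155 without control 2.

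Cd46, known in mice mainly from the sperm acrosome, had levels of 37.3, 14.8 and 24.6 CPM in controls 1 to 3, which averaged 25.6 ± 11.3 (SD, n = 3). Its levels with overexpression were 30.6, 35.6 and 24.05 CPM and averaged 30.1 ± 5.79 (SD, n = 3). The highest and the lowest value of the 6 were both in controls. The log2 fold change was 0.24 ± 0.33 (SE) with all libraries, 0.61 ± 0.30 without control 1 and -0.038 ± 0.22 without control 2, so the sign rested on control 2.

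Cd59a, the inhibitor of pore assembly, also had overlapping groups. Its control levels of 2.51, 6.20 and 4.23 CPM averaged 4.31 ± 1.85 (SD, n = 3). The levels with overexpression, 3.16, 6.75 and 4.31 CPM, averaged 4.74 ± 1.83 (SD, n = 3). In both groups library 1 was low and library 2 high. The log2 fold change was 0.13 ± 0.41 (SE), with -0.13 without control 1, -0.20 without overexpression library 2 and 0.49 without control 2. Cd59a varied by 42.8% among controls and by 38.7% among overexpression libraries (coefficient of variation), where counting error alone would give 6.75% and 5.76%. For Cd46 in controls the same values were 44.1% and 2.87%, and for Cd55 in controls 12.5% and 6.26%. The related gene Cd59b, chosen after its values were seen, was at 1.30 ± 0.43 and 1.13 ± 0.15 CPM (SD, n = 3). Whether counts were split between Cd59a and Cd59b was not tested.

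**Figure D4:**
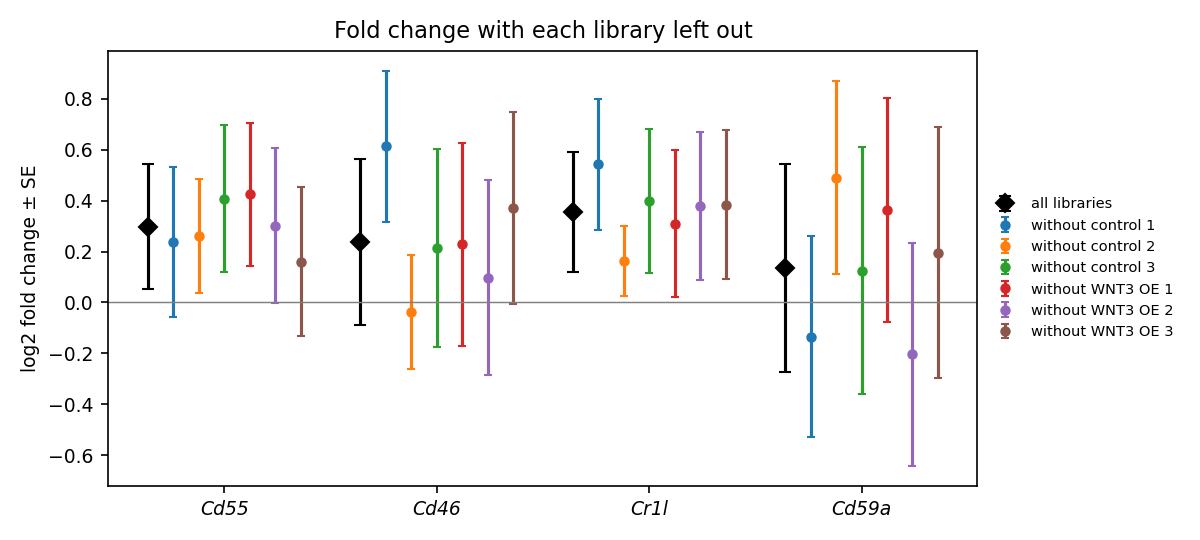
Log2 fold change of overexpression against control (edgeR fit, error bars ± SE) for the 4 protein-coding genes with all libraries (black) and with each library left out (colours). Cd55 and Cr1l stay above 0 in all 7 fits, whereas Cd46 drops to -0.038 without control 2 and Cd59a to -0.13 and -0.20 without control 1 and overexpression library 2.

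Levels of the 4 protein-coding genes and Cd55os can be ranked on the TPM scale, which is per transcript length. In controls the mean levels were 18.3 TPM for Cr1l, 17.01 for Cd46, 4.94 for Cd59a and 3.27 for Cd55. In overexpression they were 26.1 TPM for Cr1l, 22.6 for Cd46, 6.57 for Cd59a and 4.63 for Cd55, with Cd55os last at 0.49 TPM. In all 6 libraries Cr1l and Cd46 took the first and second places, Cd59a the third, Cd55 the fourth and Cd55os the last. Cr1l and Cd46 did not differ beyond their spread, since Cd46 was ahead in 2 libraries, and the ranges of Cd59a and Cd55 overlapped in both groups. Summed over the 4 genes, the level was 56.8, 25.04 and 48.8 TPM in controls 1 to 3 and 62.6, 65.1 and 52.1 TPM in overexpression, with control 2 the lowest. The TPM scale itself was lower in control 2, where the median over genes of TPM divided by CPM was 0.566, against 0.815 to 0.878 in the other libraries.

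Genes near Cd55 on chromosome 1 gave no call. Of 24 RefSeq genes within 500 kb, 7 beside Cd55 and Cd55os had enough counts to be tested, and 0 passed by edgeR (lowest Benjamini-Hochberg adjusted p = 0.82), DESeq2 or limma voom. Thsd7b, on the far side of Cd55b, had the 1 unadjusted p under 0.05, at 8.15 ± 1.54 CPM with overexpression against 5.43 ± 0.40 CPM (SD, n = 3). Gm16083, a non-coding gene on the other strand that in GENCODE M21 shares 102 exonic bases with the start of Cd55, had 234, 174 and 350 counts with overexpression and 94, 76 and 159 in controls 1 to 3. Its groups overlapped, with a log2 fold change of 0.82 ± 0.38 (SE). The other 5 were Pfkfb2 (0.38 ± 0.30), Yod1 (0.85 ± 0.60), AA986860 (0.25 ± 0.34), Gm29428 (-0.44 ± 0.95) and C4bp-ps1 (-1.03 ± 0.79), each a log2 fold change ± SE. Without control 2, Gm29428 was at 0.044 and C4bp-ps1 at 0.15, so both signs turned, and Pfkfb2 and Yod1 were at 0.097 and 0.37. The complement genes Cd55b and C4bp in the same window had 3 and 14 counts over all 6 libraries and were not tested.

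The rest of the complement system was described by 5 lists of 66 genes, of which 47 were tested. Of these, 32 had a fold change above 0 and 15 below, where 49.3% of all tested genes were above 0. By edgeR's quasi-likelihood F-test, 0 of the 47 were called (lowest Benjamini-Hochberg adjusted p = 0.82), and over all tested genes it called 0% higher and 0% lower. An unadjusted p under 0.05 was reached by 6 of the 47 with higher levels, or 12.8%, against 1.86% over all tested genes, and by 0 with lower levels, against 2.8%. DESeq2 called 1 of them, C4b, where it called 0.248% of all genes in either direction, and limma voom called 0. Groups did not overlap in CPM for 5 of the 47 that were higher, or 10.6%, against 5.89% over all tested genes, and for 1 that was lower, or 2.13%, against 6.04%. Of the members, 1 was separate (Cd55os, higher), a count that the choice of members fixes. The genes named from here on as separate or by their unadjusted p were picked after their values were seen. The lists too were chosen with earlier results of these data known, so their shares are a description only. Among the 6 with an unadjusted p under 0.05 are C4a and C4b, whose counts may be mixed.

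Among classical and lectin pathway components, 9 of 14 tested genes had a fold change above 0, with a median log2 fold change of 0.21 against -0.01 over all genes. The median was 0.11 without overexpression library 1. Without overexpression library 3 it was 0.54, and without controls 2 and 3 it was 0.39 and 0.397, each over 15 genes that passed the filter rather than 14. C4b, the mouse C4 component, was at 11.9, 10.97 and 26.2 CPM in the controls and at 82.2, 31.6 and 41.2 CPM in overexpression, a log2 fold change of 1.66 ± 0.45 (SE). DESeq2 no longer called it when any library other than control 3 was left out. Its close copy C4a was at 2.83 ± 0.14 and 5.02 ± 0.20 CPM (SD, n = 3), and counts of the 2 copies may be mixed. The groups were also separate for C1s1, which encodes a C1s protease, at 2.75 ± 0.54 and 6.07 ± 2.41 CPM, and for Masp1, a protease of the lectin pathway, at 15.6 ± 0.90 and 17.99 ± 0.30 CPM (SD, n = 3).

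The subunits of C1q, which binds the target and starts the classical pathway, differed in a direction that rested on control 2. C1qa was at 23.9, 67.9 and 26.3 CPM in the controls and 42.7, 25.7 and 30.5 CPM in overexpression. The log2 fold changes of C1qa, C1qb and C1qc were -0.26 ± 0.41, -0.21 ± 0.39 and -0.36 ± 0.31 (SE) with all libraries, and 0.39 ± 0.21, 0.39 ± 0.22 and 0.065 ± 0.17 (SE) without control 2. Control 2 was the highest library for all 3 subunits. The 10 markers of microglia, the main source of C1q in the brain, summed to 353, 486 and 407 CPM in the controls and 449, 276 and 362 CPM in overexpression, and their part in these values was not tested.

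Components of the alternative and terminal pathways were scarce. Of 10 genes 4 were tested, with a median log2 fold change of 0.38, which was 0.34 and 0.43 without controls 2 and 3. Without control 1 and without overexpression libraries 1, 2 and 3 the filter passed 5 genes. Their medians of 0.16, 0.039, -0.059 and 0.076 are therefore not over the same genes. Cfb, factor B of the alternative convertase, averaged 3.72 ± 1.43 CPM with overexpression against 2.27 ± 0.26 CPM (SD, n = 3). C7 and C8g, parts of the membrane attack complex, had log2 fold changes of -0.21 ± 0.29 and 0.05 ± 0.30 (SE), or -0.010 and -0.046 without control 2. C6, C9 and Cfd had no count in any library.

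Of the other regulators, 9 of 12 tested genes had a fold change above 0. Their median log2 fold change was 0.029, and 0.040 to 0.34 with single libraries left out. The 3 with the highest mean TPM were Clu, encoding clusterin, a fluid-phase inhibitor of pore assembly, Susd4, encoding a membrane regulator, and Vtn, encoding vitronectin. Clu was at 687 ± 208 and 558 ± 56.0 CPM, Susd4 at 100.4 ± 9.82 and 102.3 ± 2.46 CPM, and Vtn at 44.4 ± 13.4 and 42.5 ± 3.28 CPM (SD, n = 3), all with overlapping groups. Without control 2 the log2 fold change of Vtn turned from -0.06 to 0.21, and that of Clu went from -0.30 to -0.029.

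Complement receptors had a fold change above 0 in 7 of 8 tested genes, with a median log2 fold change of 0.42, which was 0.19 without overexpression library 1 and 0.37 to 0.58 without each of the others. C5ar2, the second receptor for C5a, was separate between the groups, at 1.78 ± 0.06 CPM with overexpression against 0.81 ± 0.21 CPM (SD, n = 3). Itgam and Itgb2, the chains of complement receptor 3, were at 23.6 ± 7.76 and 24.7 ± 9.04 CPM, and at 5.21 ± 0.25 and 7.04 ± 2.21 CPM (SD, n = 3). Itgax, the alpha chain of complement receptor 4, was at 2.27, 0.37 and 1.06 CPM in overexpression against 0.39 ± 0.10 CPM in controls (SD, n = 3). C1qbp, which binds C1q globular heads, turned in sign as well, from a log2 fold change of -0.12 ± 0.29 (SE) to 0.29 ± 0.12 without control 2. The value of Itgam turned from 0.06 to -0.16 without that library.

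Genes that attach the GPI anchor of CD55 and CD59, with partner proteins, centred on a log2 fold change of -0.035 (median of 9 tested genes). With single libraries left out, the middle value of these 9 genes lay between -0.052 (Pigk, without overexpression library 3) and 0.047 (Pigs, without control 2). It was below 0 without controls 1 and 3, at -0.018 and -0.016 (Pigk). In all of these fits but that without overexpression library 3 the filter passed 10 genes, whose medians lay between -0.074 and 0.13. Pigt, a subunit of the GPI transamidase, had all overexpression libraries below all controls, with means of 34.2 ± 1.68 CPM in controls and 30.4 ± 1.86 CPM (SD, n = 3). Its log2 fold change was -0.17 ± 0.16 (SE). Its partners Pigk and Pigs had log2 fold changes of -0.04 ± 0.14 and -0.09 ± 0.20 (SE), and without control 2 that of Pigs was 0.047. Adgre5, which encodes the CD97 receptor that binds CD55, was named after its values were seen, at 8.48 ± 1.47 and 9.32 ± 0.73 CPM (SD, n = 3).

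**Figure D5:**
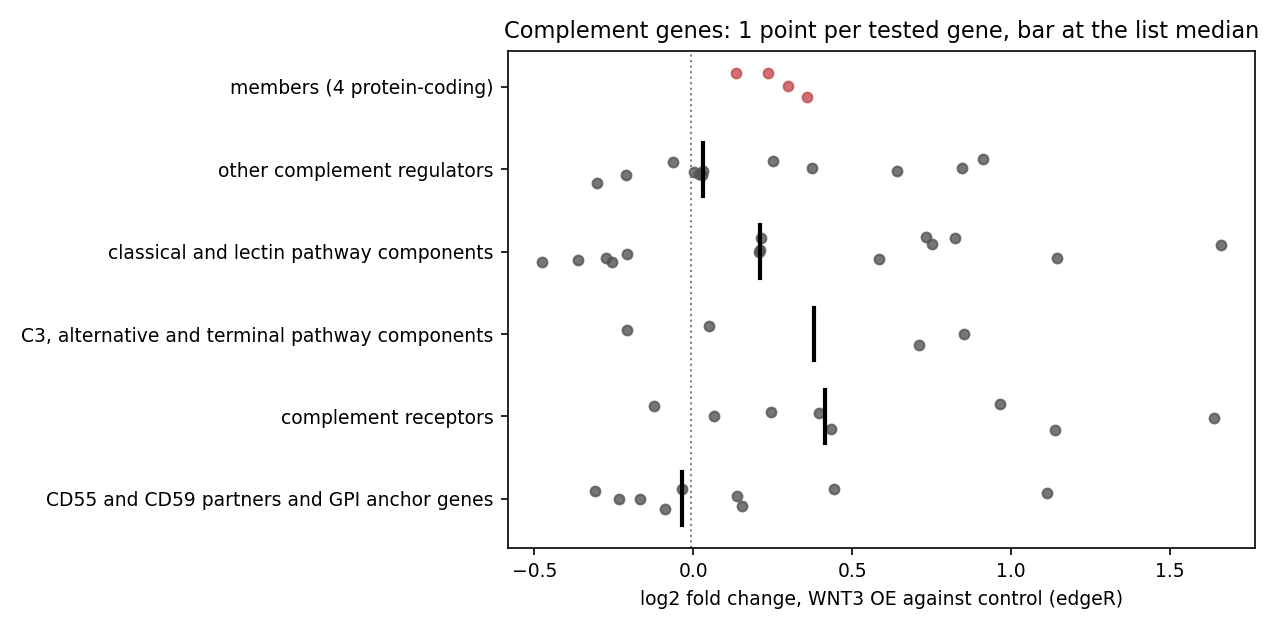
Log2 fold changes of overexpression against control for the 4 protein-coding members (red) and 47 other tested genes in 5 lists (grey), with list medians as black bars and the median over all genes as a dotted line. The members lie between 0.13 and 0.36, and the highest grey point is C4b at 1.66.

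The genes most like Cd55 across the 6 libraries, by Pearson correlation of log2 CPM among 13876 genes with a mean of 1 CPM or more, were Snx9 (r = 0.993), Adgra1 (r = 0.988), Plat (r = 0.987), Fam53b (r = 0.982) and Orai2 (r = 0.98). Snx9, a sorting nexin of endocytosis, had levels of 11.7, 12.01 and 14.9 CPM in controls 1 to 3 and of 13.6, 16.05 and 18.5 CPM with overexpression, which put the 6 libraries in the same order as Cd55 did. For Cd55os they were Col2a1, Dgka, C4a, Slc44a2 and G6pdx, with r from 0.974 to 0.984. These are the highest of many correlations over few libraries, the groups are part of the pattern, and on the log2(TPM + 1) scale 0 of the 5 genes were the same for either Cd55 or Cd55os. Plat encodes tissue plasminogen activator, and C4a belongs to the classical pathway.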

How the data were processed

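RNA was extracted with Trizol and made into strand-specific TruSeq libraries, per the labels' protocols. Without stating roles, the submitters' processing notes name the build mm10 and the tools STAR 2.5.3a, DESeq 1.16.1, Cuffnorm and FastQC 0.11.5. Which program counted, on which annotation and with which strand setting, is not given in the sources used here. In the deposited count table the authors give unnormalized whole-number counts per gene, and the deposited TPM table holds the authors' values per length, scaled to the same total in each library. Columns were matched to samples by library name and grouped by title.

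Counts were tested with the edgeR 4.0.16 quasi-likelihood test in R 4.3.3 (filterByExpr with a minimum count of 10, TMM, group as the only term, Benjamini-Hochberg adjustment over 22360 genes, threshold 0.05), and checked on simulated counts. The SE was taken as log2 fold change over root F. CPM uses TMM-scaled sizes. A floor of 3 counts bounds folds from 0. Intervals cover counting error only. Exact tests of 3 against 3 libraries cannot go below p = 0.1 and were not used. Alternatives were DESeq2 1.42.0, limma 3.58.1 (voom, and trend fits of log2 TPM with pseudocounts of 1 and 0.1), other scalings and filters, a replicate block and omission of each library. DESeq2 without single libraries and the likeness to Cd55os on TPM were chosen after seeing the data.

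The members and gene lists were chosen with earlier results of these data known. Named were all members, Wnt3, the 3 genes of highest mean TPM per list, neighbours within 500 kb and the 5 genes most like Cd55 and Cd55os; others are said to be chosen afterwards. Positions are from GENCODE M21 and RefSeq GRCm38.p6, in which all 5 members were found. The values of 1 listed gene are not reported here.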

Additional observations from a re-analysis of the deposited data

How the results depend on the processing

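With edgeR, 0 genes were called over all genes and in each of the 5 lists under each scaling, filter and omission of a library tried, and the limma voom and limma-trend fits to all libraries called 0 too, whereas DESeq2 called 64 genes, and 86, 131 and 108 without controls 1 to 3 and 29, 13 and 65 without overexpression libraries 1 to 3. In the classical and lectin list DESeq2 called 1 gene, and 0 to 1 with single libraries left out (1 without control 3). With a replicate block, edgeR called 0 genes. The log2 fold changes were then 0.29 for Cd55, 0.31 for Cd46, 0.16 for Cd59a and 0.39 for Cr1l. For Cd59a the SE was 0.27 with the block and 0.41 without it. Correlations of the deviations of same-numbered libraries were 0.06, -0.02 and -0.01. Whether these libraries share more than a number is not given, and 3 libraries per group cannot settle it. On log2(TPM + 0.1) the Cd55 value was 0.53, but the median over all genes was also higher there, at 0.22 against -0.01 in the count fit. With single libraries left out, the log2 fold changes ran from 0.16 to 0.42 for Cd55, 0.16 to 0.54 for Cr1l, -0.038 (without control 2) to 0.61 for Cd46, -0.20 (without overexpression library 2) to 0.49 for Cd59a (-0.13 without control 1) and 1.94 to 4.66 for Wnt3, where 1.94 is without overexpression library 1. The Cd55os bound ran from 15.3-fold to 28.9-fold, being 15.3-fold, 15.9-fold and 17.2-fold without controls 2, 3 and 1, since fewer control counts set the floor, and was 7.99-fold with a floor in each library. Of the 5 genes most like Cd55, 0 were shared on the TPM scale, and the same held for Cd55os.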
